A study of Mus musculus with 11 samples.

Results

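The genes described here are 10 genes of the unfolded protein response, chosen by name around Ddit3, which encodes the transcription factor CHOP. The other members are Hspa5, Atf4, Atf6, Xbp1, Atf3, Trib3, Herpud1, Dnajb9 and Ppp1r15a. Each symbol was matched to its Ensembl identifier, and all 10 were found among the 38393 genes listed for each library. RNA came from whole eyes of C57BL/6 mice (C57Bl/6J in the study's methods for the KO line) aged 1 to 2 months. The lens and the cornea had been taken off, so that retina, retinal pigment epithelium (RPE), choroid, sclera and ciliary body were read together. Markers of lens, of cornea and conjunctiva, and of skeletal muscle were read as well, at levels given below. Of the 11 libraries, 5 were from wild-type (WT) animals and 6 from miR-211-/- (KO) animals, in which the miR-211 precursor was deleted by homologous recombination. By the study's methods all 6 KO animals were male, and the WT animals were 2 males and 3 females. The sex behind each WT library was not used here, so that genotype and sex cannot be fully told apart. By the column names of a table published with the study, 2 WT and 3 KO libraries belong to a series named by mouse number and 3 WT and 3 KO libraries to a series named by age. Whether the 2 series divide the WT animals by sex was not tested.

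The endoplasmic reticulum (ER) folds secreted and membrane proteins, and photoreceptors and RPE cells pass large amounts of such protein through it. When unfolded proteins build up, the chaperone BiP, the product of Hspa5, leaves the sensors PERK, IRE1 and ATF6. PERK phosphorylates eIF2alpha and favours translation of Atf4, IRE1 splices the Xbp1 mRNA, and ATF6 is cut in the Golgi to free a transcription factor. ATF4 raises Ddit3, Atf3 and Trib3, whereas XBP1 and ATF6 raise chaperones and degradation genes. The counts measure mRNA per gene, so neither Xbp1 splicing, nor eIF2alpha phosphorylation, nor ATF6 cleavage can be read from them. The comparison asks whether loss of miR-211, a microRNA that earlier work cited by the study ties to Chop, goes with altered mRNA levels of this pathway. The study itself reported that Chop and its pathway were unchanged in the KO animals.

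The mature microRNAs are shown because they define the sequence a target would carry. Their sequences are those of RefSeq on GRCm38.p6, with the seed (bases 2 to 8 from the 5′ end) in capitals. miR-211-5p lies at chr7:64205831-64205852 and miR-204-5p, its paralog, at chr19:22750610-22750631, both on the plus strand.
miR-211-5p: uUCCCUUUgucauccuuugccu
miR-204-5p: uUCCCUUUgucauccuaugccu
The seeds are the same, and the only difference over the 22 bases is U17A, counted from the 5′ end of miR-211-5p. A seed match in an mRNA is AAAGGGA (paired to bases 2 to 8) or AAGGGAA (paired to bases 2 to 7, followed by A).

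Seed matches in 3′ UTRs were looked for in 1 transcript a gene, the Gencode M21 transcript with the longest coding sequence. The 197-base 3′ UTR of Ddit3 held no match of either kind. AAAGGGA occurred in the 3′ UTR of 1 of the 10 members, Atf6, and in 15.0% of the 14322 tested genes with a 3′ UTR. Atf6 carried it at chr1:170709368-170709374 and at chr1:170709037-170709043 on the minus strand of GRCm38, shown here with their flanks and the match in capitals.
Atf6 first site: agagtttgggtAAAGGGAttatctccagt
Atf6 second site: ccagactcagcAAAGGGActtggaggtca
The 3′ UTR of Atf6 also held 2 overlapping AAGGGAA matches and that of Atf3 held 1. With either kind of match counted, the share of all tested genes was 22.4%. The 3′ UTR of Atf6 was 5205 bases long, against a median of 994 in the tested genes. Before its 3′ UTR, the Ppp1r15a transcript held AAAGGGAA, which contains both kinds of match, at chr7:45525811-45525818 and chr7:45525759-45525766. It also held AAGGGAA at chr7:45525606-45525612. The share of all genes with matches outside the 3′ UTR was not computed.

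The stretches upstream of Ddit3, Hspa5 and Herpud1 are shown because levels of Hspa5 and Herpud1 are compared below with those of Ddit3, and because motifs that ATF6 and XBP1 are known to bind were searched in them. Each is the 250 bases before the RefSeq start on the plus strand of GRCm38.p6, for Ddit3 chr10:127290543-127290792, for Hspa5 chr2:34771840-34772089 and for Herpud1 chr8:94386179-94386428. Capitals mark the fixed letters of a motif.
Ddit3: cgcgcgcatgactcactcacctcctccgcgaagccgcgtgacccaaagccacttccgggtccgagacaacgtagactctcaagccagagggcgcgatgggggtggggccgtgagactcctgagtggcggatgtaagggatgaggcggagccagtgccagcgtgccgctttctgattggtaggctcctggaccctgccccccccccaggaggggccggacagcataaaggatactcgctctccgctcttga
Hspa5: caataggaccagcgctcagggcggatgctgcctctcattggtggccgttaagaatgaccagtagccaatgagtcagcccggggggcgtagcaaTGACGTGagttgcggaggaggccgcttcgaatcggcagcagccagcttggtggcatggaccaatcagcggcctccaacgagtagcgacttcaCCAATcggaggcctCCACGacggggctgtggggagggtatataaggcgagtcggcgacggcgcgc
Herpud1: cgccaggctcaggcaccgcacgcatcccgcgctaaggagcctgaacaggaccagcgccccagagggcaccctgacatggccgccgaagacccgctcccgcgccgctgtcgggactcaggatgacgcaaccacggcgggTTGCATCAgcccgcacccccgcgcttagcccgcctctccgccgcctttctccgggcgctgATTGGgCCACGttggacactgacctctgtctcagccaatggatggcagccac
Motifs were searched on both strands in windows of 250 bases before to 50 after the start, which RefSeq gave for 9 of the 10 members. No window was given for Atf6. The ER stress element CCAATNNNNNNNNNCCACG was found upstream of Hspa5, at bases -65 to -47 from the start, and in 0.119% of all 32851 windows. Herpud1 held ER stress element II, ATTGGNCCACG, at bases -52 to -42, a motif in 0.0365% of windows. Hspa5 also held TGACGTG, the core of the XBP1 element, which was present in 2.01% of windows. The C/EBP-ATF element TTGCATCA, to which ATF4 with a C/EBP partner can bind, was found upstream of Atf3 and Herpud1 and in 0.895% of windows. The cyclic AMP element TGACGTCA was found upstream of Ppp1r15a and in 1.79% of windows. The letters AAAGGGA, on either strand, were present in the windows of Atf4 and Ppp1r15a and in 7.23% of all windows. In Ppp1r15a they lay at bases -219 to -213, and in Atf4 on the opposite strand, read as TCCCTTT, at bases -163 to -157. Both places lie before the RefSeq start, in DNA outside the mRNA, and are not microRNA sites in these mRNAs. The Ddit3, Xbp1, Trib3 and Dnajb9 windows held none of the 6 motifs, which says nothing of sites elsewhere or of other spellings.

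The libraries held between 20282241 and 36317673 read pairs assigned to genes. The authors assigned the reads with RSEM and deposited expected counts, estimates of the read pairs from each gene, beside FPKM, which scale these by gene length and library size. Levels of 1 gene across libraries are given in CPM, counts scaled to library size, with edgeR's TMM factors. The lowest expected count of any member in any library was 103, in Atf3, and counting error adds more to the spread of Atf3 and Trib3 than to that of the other 8 members. Mir211 had a count of 0 in all 11 libraries, WT included, and the counts do not check its deletion. Its host gene Trpm1 was read at 331 to 496 CPM in WT and 413 to 465 CPM in KO libraries. The summed levels of 5 rod, 5 cone and 5 RPE markers overlapped between genotypes, at 24795 to 38846 CPM in WT and 29120 to 39432 CPM in KO for rods. A list of 6 lens genes reached 78474 CPM in WT replicate 4, 22401 in KO replicate 3 and 3110 in KO replicate 6, against 4.95 to 63.4 CPM in the other 8 libraries. A list of 5 cornea and conjunctiva genes had a median of 3100 CPM in WT (961 to 6018) and 3810 CPM in KO libraries (1235 to 7110). The cone list stood at 692 to 819 CPM in WT and 709 to 789 CPM in KO libraries.

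No member passed the test of KO against WT. In edgeR's likelihood-ratio test on the 15767 genes that reached 1 CPM in 5 or more libraries, 0 of the 10 members had an adjusted p under 0.1, and 0 had an unadjusted p under 0.05. Among all genes tested these shares were 0.00634% and 2.09%. The same count of 0 members was found with the quasi-likelihood test and with DESeq2. The adjusted p was 1.00 for every member. The CPM ranges of the 2 genotypes overlapped for all 10 members, and 0.184% of the tested genes had ranges that did not overlap. Of the members, 8 had a log2 fold change (KO over WT) below 0 and 2 above, with a median of -0.14 over the members against 0.00 over all genes, of which 48.9% lay below 0. With each library left out in turn the median over the members ranged from -0.195 without KO replicate 2 to -0.065 without WT replicate 1. The 95% interval of every member's fold change included 0.

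**Figure D1:**
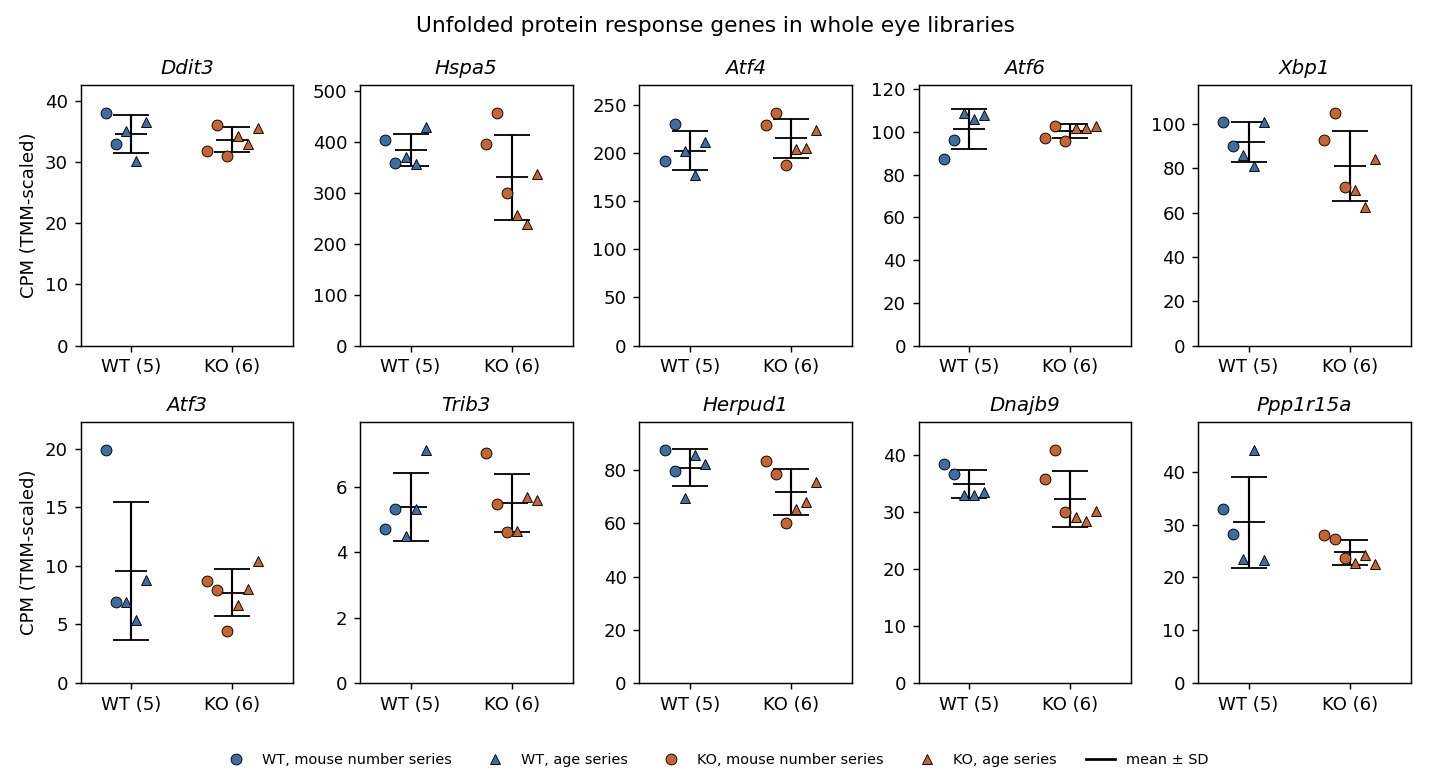
CPM of each of the 10 genes (y axis, from 0) in the 5 WT (blue) and 6 KO (orange) libraries, with circles for the mouse number series, triangles for the age series and bars for mean ± SD. The ranges of WT and KO overlap in every panel, Atf3 in WT replicate 1 stands at 19.9 CPM and Ppp1r15a in WT replicate 4 at 44.1 CPM.

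Ddit3 (ENSMUSG00000025408, chr10:127290774-127296288 on the plus strand of GRCm38) encodes CHOP, the factor that links prolonged ER stress to cell death. It was read at 38.1, 33.0, 35.1, 30.2 and 36.6 CPM in WT replicates 1 to 5. In KO replicates 1 to 6 it was read at 31.9, 36.1, 31.0, 34.3, 33.0 and 35.7 CPM. Both the highest value and the lowest were WT libraries, and all 6 KO values lay between them. WT libraries averaged 34.6 ± 3.10 CPM (SD, n = 5) and KO libraries 33.7 ± 2.06 CPM (SD, n = 6), and the highest library exceeded the lowest 1.26-fold. The log2 fold change was -0.04 (standard error 0.10, 95% interval -0.23 to 0.15), that is a ratio of 0.972 with an interval of 0.850 to 1.11 (edgeR's likelihood-ratio test, adjusted p = 1.00). A two-sided exact permutation test of the log2 CPM over all splits into 5 and 6 libraries gave p = 0.571, where the smallest p it allows is 0.00216. Within the mouse number series the log2 fold change was -0.11 (standard error 0.17) and within the age series 0.02 (standard error 0.14). Without TMM factors it was 0.00. Exons of Ddit3 share 68 bases with Mars and 13 with Gm4189 on the opposite strand, both shorter than a read of 100 nt. On the same strand they share 105 bases with ENSMUSG00000116429, which is not among the genes listed for the libraries. The counting by the study's methods used RSEM's standard parameters, which do not use strand. The part of reads from these genes in the Ddit3 counts was not tested.

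Hspa5 (ENSMUSG00000026864, chr2:34771970-34777547) encodes BiP, an abundant chaperone of the ER and a common readout of ER load. Its WT values were 403, 359, 370, 356 and 429 CPM. Its KO values were 395, 457, 299, 256, 239 and 336 CPM. The 4 lowest libraries were KO replicates 5, 4, 3 and 6, while the highest, KO replicate 2, was also a KO library. KO libraries averaged 330 ± 83.8 CPM (SD, n = 6), where WT libraries averaged 384 ± 31.6 (SD, n = 5). The log2 fold change was -0.22 (standard error 0.19, 95% interval -0.59 to 0.15), with an exact permutation p of 0.180. In the age series WT averaged 385 CPM and KO 277 CPM (log2 fold change -0.47, standard error 0.21, edgeR's adjusted p = 0.999). In the mouse number series the averages were 381 and 383 CPM (log2 fold change 0.01, standard error 0.27). The series differed by 0.48 on the log2 scale, with an adjusted p of 1.00 for the interaction of genotype and series in edgeR. Without KO replicate 2 the log2 fold change of Hspa5 was -0.33 and its exact permutation p 0.0476, and without KO replicate 5 the log2 fold change was -0.14. Summed skeletal muscle markers had a median of 3546 CPM in WT (717 to 5712) and 1479 CPM in KO libraries (533 to 6186). Summed adipocyte markers had a median of 117 CPM in WT (9.89 to 415) and 12.6 CPM in KO libraries (9.14 to 202). The log2 sum of the muscle markers had a correlation with Hspa5 that did not pass the adjustment (Pearson r = 0.62, permutation p = 0.0423, and Spearman rho = 0.54, p = 0.0931). Adjusted over the 18 relations computed between Hspa5 or Ddit3 and 9 marker lists, that p was 0.384, and r was 0.57 without the 2 libraries farthest from the median of the muscle markers. The part of other tissue in the Hspa5 values was not tested, and fewer cells of a type cannot be told apart from less RNA per cell in such bulk samples.

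Xbp1 (ENSMUSG00000020484, chr11:5520659-5525893) encodes the factor that IRE1 activates by splicing. WT libraries were read at 101, 90.1, 85.8, 81.0 and 101 CPM, and KO libraries at 92.6, 105, 71.5, 70.0, 62.5 and 84.3 CPM. As for Hspa5, KO replicates 5, 4 and 3 were the lowest and KO replicate 2 the highest. KO differed from WT by a log2 fold change of -0.18 (standard error 0.15, 95% interval -0.47 to 0.10), with an exact permutation p of 0.180. It was -0.30 within the age series and -0.09 within the mouse number series.

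Atf6 (ENSMUSG00000026663, chr1:170704674-170867771 on the minus strand), the sensor whose 3′ UTR carries the seed matches shown above, varied little. It was read at 87.6, 96.1, 109, 106 and 108 CPM in WT libraries and at 97.2, 103, 95.9, 102, 102 and 103 CPM in KO libraries. All KO values lay inside the WT range. The ratio of KO to WT was 0.993 with a 95% interval of 0.876 to 1.13. The fold change was thus close to 0, and its sign turned with the scaling and with several single libraries left out.

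Atf4 (ENSMUSG00000042406, chr15:80255184-80257541), which is controlled mostly through translation, was the member with the largest log2 fold change above 0, at 0.09 (standard error 0.12, 95% interval -0.14 to 0.32). WT libraries were read at 192, 230, 202, 177 and 212 CPM, and KO libraries at 229, 242, 188, 204, 205 and 224 CPM. The lowest library was WT and the highest KO, and 5 of the 6 KO values lay above the WT median, with an exact permutation p of 0.301.

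Trib3 (ENSMUSG00000032715, chr2:152337422-152344032 on the minus strand), a pseudokinase induced by ATF4 and CHOP that restrains both, had the lowest mean FPKM of the 10. WT libraries held 4.72, 5.33, 4.49, 5.32 and 7.13 CPM and KO libraries 7.03, 5.47, 4.62, 4.66, 5.70 and 5.60 CPM. A single library of each genotype, WT replicate 5 at 7.13 and KO replicate 1 at 7.03 CPM, lay above the others, which ranged from 4.49 to 5.70 CPM. Between genotypes the log2 fold change was 0.03 (standard error 0.18, 95% interval -0.33 to 0.39), and its sign turned when WT replicate 1 or 3 or KO replicate 1 was left out.

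Atf3 (ENSMUSG00000026628, chr1:191170296-191218039 on the minus strand) encodes a stress factor that is also an immediate early gene. WT replicate 1 held 19.9 CPM, and the other WT libraries 6.93, 6.91, 5.37 and 8.79 CPM. KO libraries held 8.69, 7.94, 4.44, 6.65, 8.06 and 10.4 CPM. The log2 fold change of -0.32 (standard error 0.34) rested on WT replicate 1, and without this library it was 0.14. It was -0.93 (standard error 0.51) in the mouse number series, which includes WT replicate 1, and 0.25 (standard error 0.28) in the age series, and the adjusted p of the interaction in edgeR was 1.00. In the same library 8 of 10 immediate early genes had their highest level, whereas 21.4% of all tested genes were highest there. Egr1 stood at 44.6 CPM against 12.6 to 20.5 in the other 10 libraries, and Jun at 73.9 CPM against 44.3 to 52.5. The summed immediate early level was 395 CPM there and 227 to 309 CPM in the KO libraries. Its part in the Atf3 value was not tested.

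Ppp1r15a (ENSMUSG00000040435, chr7:45522916-45526268 on the minus strand) encodes GADD34, the phosphatase subunit that reverses eIF2alpha phosphorylation. WT libraries held 33.0, 28.2, 23.5, 44.1 and 23.2 CPM and KO libraries 28.1, 27.2, 23.7, 22.7, 24.3 and 22.6 CPM. The 3 highest libraries were WT, yet WT replicates 3 and 5 lay among the KO values. It had the smallest unadjusted p of the members, 0.0898, and its log2 fold change was -0.29 (standard error 0.17, 95% interval -0.63 to 0.05, edgeR's adjusted p = 1.00). The exact permutation p was 0.167. Without WT replicate 4, the library with the highest lens level, the log2 fold change was -0.11. The part of lens tissue in the Ppp1r15a values was not tested.

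Herpud1 (ENSMUSG00000031770, chr8:94386438-94395377) encodes an ER membrane protein of the degradation machinery. WT libraries held 87.5, 79.8, 69.6, 85.6 and 82.2 CPM and KO libraries 83.3, 78.7, 60.1, 65.3, 68.0 and 75.4 CPM. Of the 6 KO libraries, 5 lay below the WT median, and 3 lay below every WT library. On average KO lay lower by a log2 fold change of -0.17 (standard error 0.11, 95% interval -0.40 to 0.05). The value was -0.18 in the mouse number series and -0.18 in the age series. Its exact permutation p, 0.0909, was the smallest of the 10 members. It was 0.0381 without WT replicate 3 and 0.0397 without KO replicate 1.

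Dnajb9 (ENSMUSG00000014905, chr12:44205559-44210326 on the minus strand) encodes ERdj4, a BiP cochaperone induced by XBP1. WT libraries held 38.3, 36.7, 32.9, 32.9 and 33.5 CPM and KO libraries 35.7, 40.8, 29.9, 29.0, 28.3 and 30.2 CPM. The 4 libraries below every WT value were KO replicates 3 to 6, and the highest of all was KO replicate 2. For Dnajb9 the log2 fold change was -0.11 (standard error 0.12, 95% interval -0.35 to 0.13), with an exact permutation p of 0.262, and of 0.0317 without KO replicate 2. With all 11 libraries, 0 of the 10 exact permutation tests reached p under 0.05, and 4 of the 110 tests with 1 library left out did, unadjusted.

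**Figure D2:**
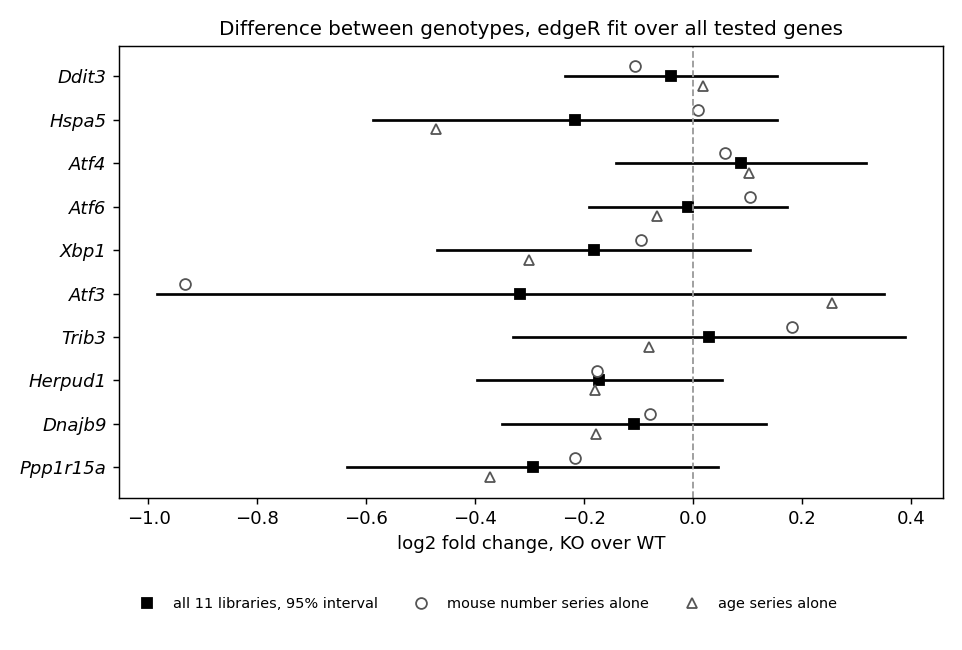
Log2 fold change of KO over WT (x axis) for each gene (y axis). Squares with lines are the fit to all 11 libraries with its 95% interval, circles the mouse number series alone and triangles the age series alone. Every interval crosses 0, and Hspa5 (0.01 and -0.47) and Atf3 (-0.93 and 0.25) show the widest gaps between the series.

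Levels of different genes were compared only per length, in the deposited FPKM. Hspa5 was the highest, with WT at 153 ± 19.9 FPKM (SD, n = 5) and KO at 135 ± 32.3 FPKM (SD, n = 6), followed by Atf4 at 119 ± 17.3 in WT and 131 ± 11.4 in KO. Xbp1 came next with 52.0 ± 8.38 FPKM in WT and 47.0 ± 8.52 in KO. Herpud1 stood at 44.7 ± 3.30 and 41.3 ± 4.31 FPKM, and Ddit3 at 40.7 ± 5.84 and 40.8 ± 3.04 FPKM. Every Ddit3 value was above every value of 3 other genes of the ATF4 and CHOP branch. Ppp1r15a stood at 12.8 ± 2.67 FPKM in WT and at 10.1 to 12.4 FPKM in KO libraries, Atf3 at 4.98 ± 3.07 and 4.05 ± 1.07, and Trib3 at 2.80 ± 0.598 and 2.87 ± 0.463 FPKM in WT and KO. Dnajb9 averaged 18.9 ± 2.03 FPKM in WT and 18.1 ± 2.51 in KO, and Atf6 13.8 ± 1.59 and 14.2 ± 0.713.

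Of the 9 steps in this order, the ranges over the 11 libraries were separate at 2, between Atf4 and Xbp1 and between Ddit3 and Dnajb9. Hspa5 and Atf4 overlapped, as did Xbp1, Herpud1 and Ddit3 among themselves. The neighbours from Dnajb9 downwards also overlapped, through WT replicate 1 in the case of Ppp1r15a and Atf3. WT replicate 4 had the lowest FPKM of Ddit3 (31.3) and of Atf4 (91.4), and in CPM it was also the lowest library for both (30.2 and 177). It had the highest lens level, whose part in these values was not tested.

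**Figure D3:**
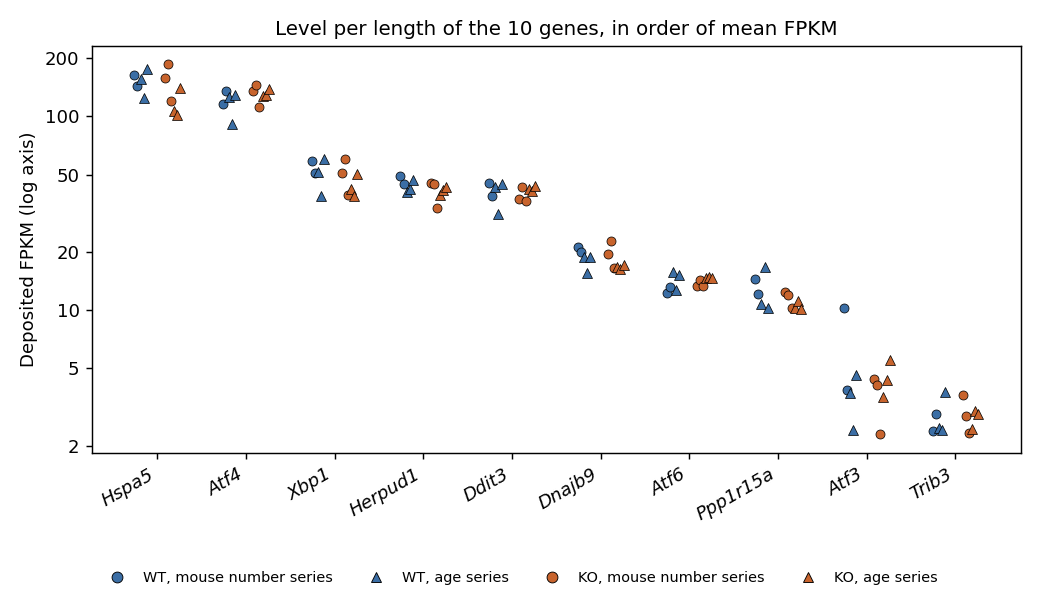
Deposited FPKM (y axis, log scale) of the 10 genes in order of their mean (x axis), with WT in blue, KO in orange, circles for the mouse number series and triangles for the age series. Hspa5 and Atf4 lie at 91.4 to 185 FPKM, Xbp1, Herpud1 and Ddit3 at 31.3 to 60.4, and the other 5 genes at 22.6 or below.

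While no member passed the test between genotypes, some members varied together from library to library. Pearson's r of the log2 CPM was computed for all 45 pairs over 11 libraries, and 4 pairs had an adjusted permutation p under 0.05 (8 before adjustment). The closest pair was Hspa5 and Xbp1, with r = 0.97 and rho = 0.97 (permutation p = 3e-05 for both, adjusted p = 0.00135). It held without KO replicates 4 and 5, the libraries farthest from the Hspa5 median (r = 0.95, exact permutation p = 0.000118). It also held after centring within series and genotype, with r = 0.99 and an exact permutation p of 0.00231, the smallest that the 432 pairings allow. Within the 6 libraries of the age series r was 0.97 (exact permutation p = 0.00417). The mouse number series holds 5 libraries, fewer than the minimum of 6 set for a correlation, and none was computed.

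Dnajb9 followed the same libraries, with r = 0.89 to Xbp1 (permutation p = 0.00019, adjusted p = 0.00427; rho = 0.95, p = 6e-05) and r = 0.87 to Hspa5 (p = 0.00042, adjusted p = 0.0063; rho = 0.91, p = 0.00025). After KO replicates 4 and 5 were left out r was 0.82 and 0.80, with an adjusted p of 0.113 for both pairs. After centring the values were 0.84 and 0.86, both with an exact permutation p of 0.00231. Herpud1 correlated with Xbp1, Hspa5 and Dnajb9 at r = 0.75, 0.72 and 0.70, none of which passed the adjustment (adjusted p = 0.0737, 0.0916 and 0.115). The 6 pairs among these 4 genes had r between 0.70 and 0.97, and the 4 were put together after their r values had been seen.

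**Figure D4:**
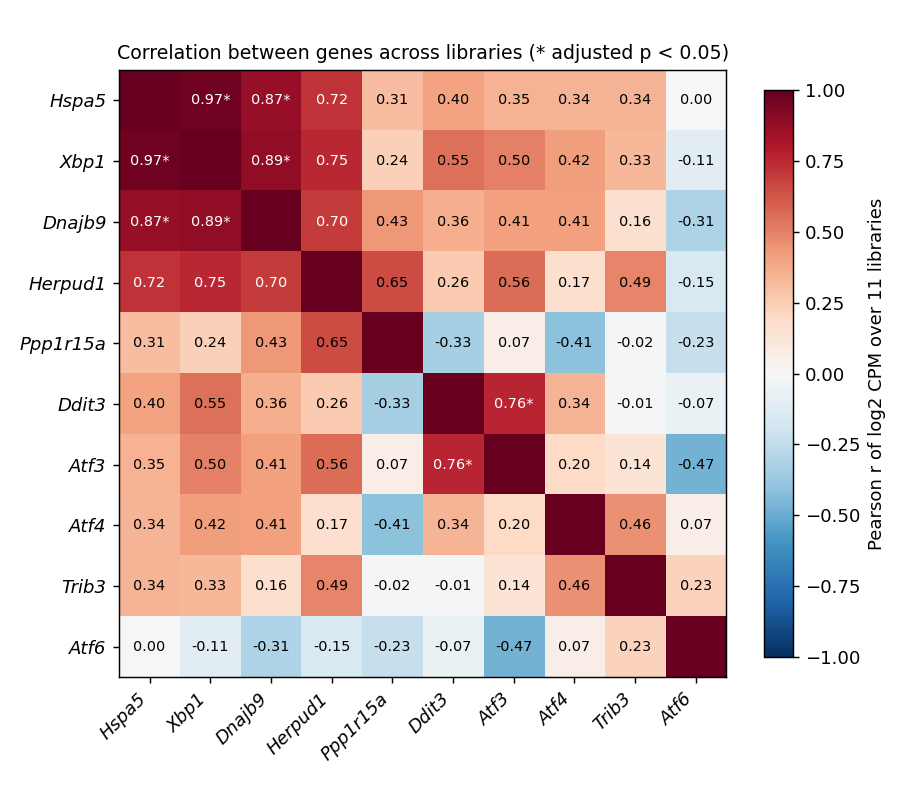
Pearson r of the log2 CPM over 11 libraries for every pair of the 10 genes, on a scale from -1 (blue) to 1 (red), with an asterisk where the adjusted permutation p is under 0.05. Hspa5, Xbp1, Dnajb9 and Herpud1 form the block at the upper left with r of 0.70 to 0.97, and Ddit3 reaches 0.76 with Atf3.

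For Ddit3, r was 0.40 with Hspa5 (permutation p = 0.221), 0.55 with Xbp1 (p = 0.0816), 0.36 with Dnajb9 (p = 0.276) and 0.34 with Atf4 (p = 0.304), and the adjusted p of these 4 pairs lay between 0.367 and 0.552. After centring within series and genotype it was 0.73 with Hspa5 and 0.78 with Xbp1 (exact permutation p = 0.0185 for both) and 0.61 with Dnajb9 (exact permutation p = 0.0162), each with an adjusted p of 0.104. Over all 11 libraries the closest member to Ddit3 was Atf3, with r = 0.76 (permutation p = 0.00378, adjusted p = 0.0425) and rho = 0.69 (p = 0.0232, adjusted p = 0.205). Leaving out WT replicates 1 and 4, the libraries with the highest and the lowest Ddit3, gave r = 0.60 (exact permutation p = 0.0807), which did not pass. The value was 0.75 after centring (exact permutation p = 0.0556) and 0.77 within the age series (exact permutation p = 0.0708). With Ppp1r15a r was -0.33. Within the age series r was -0.88 with Ppp1r15a and 0.88 with Atf4 (exact permutation p = 0.0292, adjusted p = 0.153 for both). With Atf6 r was -0.07 over all 11 libraries (permutation p = 0.832). Without WT replicates 1 and 4 it was 0.84 (exact permutation p = 0.00547, adjusted p = 0.113). A difference between the correlations of Ddit3 and those of Hspa5 was not tested.

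**Figure D5:**
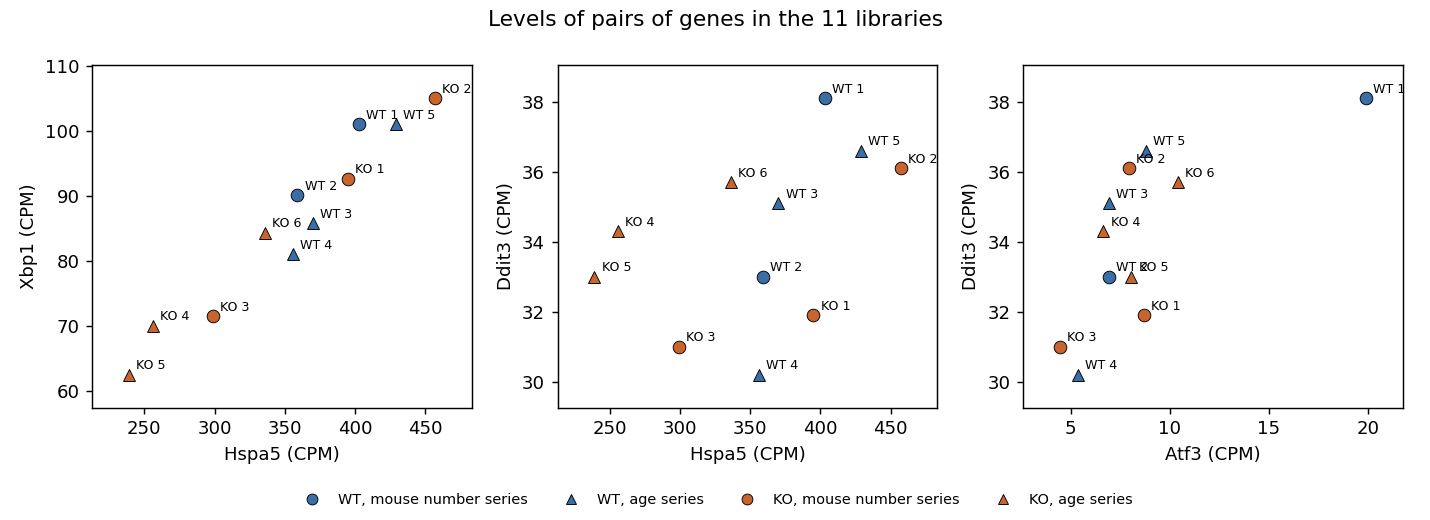
CPM of Xbp1 against Hspa5 (left), Ddit3 against Hspa5 (middle) and Ddit3 against Atf3 (right), with 1 labelled point a library, WT in blue, KO in orange, circles for the mouse number series and triangles for the age series. Xbp1 rises with Hspa5 in both genotypes (r = 0.97), Ddit3 against Hspa5 has r = 0.40, and the right panel shows WT replicate 1 apart at 19.9 CPM of Atf3.

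Among all 15767 tested genes, those with a pattern most like that of Hspa5 over the 11 libraries were Xbp1 (r = 0.97), Hspa8, a cytosolic heat shock protein (0.97), Dnajc3, a BiP cochaperone (0.93), Manf, a secreted ER stress factor (0.92), and Pdia4, a disulfide isomerase (0.91). For Ddit3 they were Eif1b (0.90), Herpud2 (0.90), Klhl23 (0.86), Wrnip1 (0.84) and Stx5a (0.83). These values are descriptions, since the genes were picked for them, and all share the same libraries and scaling.

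The wider pathway was read from 6 lists with 96 genes in all, of which 94 passed the filter. Ern2 and Derl3 did not. Of the 94, 0 had an adjusted p under 0.1 in the edgeR fit, and 2 had an unadjusted p under 0.05, both lower in KO, where 1.77% of all tested genes were lower and 0.323% higher at that level. With the quasi-likelihood test and with DESeq2 0 genes of the lists were called. The log2 fold change was below 0 for 67 genes and above for 27, and the median was -0.05. Among all tested genes 48.9% lay below 0. In the age series alone the split was 67 to 27 (median -0.085), and in the mouse number series alone 49 to 45 (median -0.007). Without TMM factors the split was 47 to 47, with a median of 0.00 against 0.05 over all genes.

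In the ATF6 list, 17 of 17 genes had a log2 fold change below 0, with a median of -0.13 and a range of -0.27 to -0.01, and 0 passed the test. These genes also followed Hspa5 across libraries (median r = 0.64 against -0.01 over all genes), so that their directions are not separate observations. Without TMM factors 14 of the 17 were below 0, in the age series 16 (median -0.25) and in the mouse number series 10 (median -0.03). Creld2, a secreted ER stress protein, had the smallest p of the list, with WT at 24.7 ± 1.84 CPM (SD, n = 5) and KO at 21.6 ± 2.17 CPM (SD, n = 6) (log2 fold change -0.19, edgeR's adjusted p = 1.00), followed by Herpud1. In the list of ER folding enzymes 17 of 20 were below 0, with a median of -0.09. That split was 18 to 2 in the age series and 8 to 12 in the mouse number series. The smallest p values there belonged to the disulfide isomerase Pdia6, at 98.9 to 138 CPM in WT and 75.1 to 124 CPM in KO libraries (log2 fold change -0.21), and to Manf, at 38.2 ± 5.04 and 33.1 ± 6.94 CPM (-0.20).

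In the PERK list 13 of 23 genes were below 0 and 10 above, with a median of 0.00. Without TMM factors 9 were below 0 and 14 above (median 0.03, against 0.05 over all genes). Atf5, a factor related to ATF4, was read at 30.9 to 70.3 CPM in WT and 26.8 to 42.8 CPM in KO (log2 fold change -0.44, standard error 0.22, unadjusted p = 0.0453, adjusted p = 1.00 in the edgeR fit), and Ppp1r15a came next. The IRE1 list had 11 of 15 below 0, with a median of -0.05. Its split was 6 below and 9 above without TMM factors (median 0.003, against 0.05 over all genes). In the mouse number series it was 9 to 6 (median -0.045). The list was led by Sec24d, a COPII coat subunit, at 23.8 ± 3.80 CPM in WT and 20.4 ± 2.83 in KO, and by Xbp1. For ER-associated degradation 12 of 19 were below 0 (median -0.02). That split was 7 to 12 in the mouse number series (median 0.01) and 9 to 10 without WT replicate 4 (median 0.00). It was 5 to 14 without TMM factors (median 0.03, against 0.05 over all genes). Erlec1, an ER lectin, was higher in KO by its mean, 44.6 ± 2.87 against 40.3 ± 1.67 CPM (log2 fold change 0.15, edgeR's unadjusted p = 0.0938, adjusted p = 1.00), followed by Herpud1.

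Of the cell death genes downstream of CHOP, 10 of 15 were below 0, with a median of -0.10, and 0 were called. Without WT replicate 1 the split was 8 to 7, with a median of -0.01, and in the mouse number series it was 8 to 7 with a median of -0.20. Pmaip1, which encodes the BH3-only protein NOXA, was read at 1.04 to 2.98 CPM in WT and 0.518 to 1.29 CPM in KO. Its log2 fold change was -0.81 (standard error 0.36, unadjusted p = 0.0234, adjusted p = 1.00 in the edgeR fit), at a level close to the filter. Ppp1r15a came next in this list too. The lists overlap, and their genes were correlated with Ddit3 at a median r between -0.11 and 0.11, against -0.04 over all tested genes.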

How the data were processed

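Total RNA from 11 whole eye samples was read by the authors in 100-nt pairs (TruSeq RNA kit). The authors assigned the reads to Gencode mouse release M4 genes with RSEM 1.2.19 and deposited, for each library, expected counts without normalization and FPKM, scaled by effective gene length and mapped fragments. Expected counts were rounded, genes that reached 1 CPM in 5 or more libraries were kept, and genotypes were compared with edgeR 4.0.16 (TMM, estimateDisp, glmFit, glmLRT) in R 4.3.3, after the generalized linear model of the study's methods, which name neither the likelihood-ratio test nor TMM, with Benjamini-Hochberg adjustment over 15767 genes and a threshold of 0.1. Standard errors were taken from the likelihood-ratio statistic. Log2 CPM with a prior count of 2 entered the exact permutation tests and the correlations (100000 resamples, numpy 2.4.6). The fits were tested on simulated data. Symbols and positions came from Gencode M21 on GRCm38 (95.4% of identifiers matched), and microRNA and promoter sequences from RefSeq on GRCm38.p6. Listed symbols Ufd1l and Vimp were read as Ufd1 and Selenos.

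Each library was matched to a column of a table published with the study by the ratio of its counts over 63 genes, which varied by at most 0.193% for the matched column and at least 24.5% for the next. The genes, lists and markers were chosen with earlier results of these data known. Named genes are the 10 members, the 2 genes of each list with the smallest unadjusted p, the 5 genes closest in pattern to Ddit3 and to Hspa5, Trpm1 and Mir211, and immediate early genes beside Atf3. Alternatives were the quasi-likelihood test, DESeq2 1.42.0, upper-quartile scaling, no TMM factors, a looser filter, a stricter threshold, a replicate block, a term for the library series, and leaving out each library. Fits within each series and the interaction of genotype and series were added after the data had been seen.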

Additional observations from a re-analysis of the deposited data

Results flagged for a closer look

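Atf3 in WT replicate 1 stood apart from the other WT libraries, at 19.9 CPM against 5.37 to 8.79 CPM. The gap to the nearest WT library took 0.765 of the WT range, above Dixon's critical value of 0.710 for 5 values. Of the 20 groups examined (10 genes in 2 genotypes) this was the only 1 past its critical value, and about 1 in 20 is expected by chance. Fos, Fosb, Egr1, Junb, Jun, Ier2, Dusp1 and Nr4a1 were also highest in that library. Whether these levels and that of Atf3 share a source was not tested.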

How the results depend on the processing

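The count of members called was 0 under every alternative run, and the smallest adjusted p of a member in any of them was 0.783. Of 200 refitted member fold changes, 183 kept their sign and 17 turned, all of them without a call. For Ddit3 the log2 fold change was 0.002 without TMM factors and 0.018 in the age series alone. For Hspa5 it was 0.008 in the mouse number series. For Atf6 it was 0.001 with upper-quartile scaling, 0.038 without TMM factors, 0.007 with the series as a covariate and 0.104 in the mouse number series. Atf3 stood at 0.254 and Trib3 at -0.081 in the age series. With each library left out in turn, Atf6 ranged from -0.057 to 0.017, Atf3 from -0.454 to 0.136 and Trib3 from -0.052 to 0.151. Those for Ddit3 ranged from -0.076 to -0.003, Hspa5 from -0.332 to -0.139, Xbp1 from -0.272 to -0.118, Dnajb9 from -0.189 to -0.072, Atf4 from 0.052 to 0.138, Herpud1 from -0.222 to -0.127 and Ppp1r15a from -0.377 to -0.114. The cause of the turns was not tested.

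Over all genes, 1 call became 0 with the quasi-likelihood test, 2 with DESeq2 and 2 with the looser filter, 10 with the series as a covariate, 7 in the mouse number series alone and 38 in the age series alone, and ranged from 1 to 11 with each library left out (11 without KO replicate 1). With the replicate block (replicate numbers 1 to 5, KO replicate 6 left out) it was 10, and the members called remained at 0. The deviations of same-numbered libraries correlated above 0.1 in 3 of 5 pairs (0.54, 0.63, -0.33, -0.26 and 0.53). Their mean was 0.22, against -0.04 for other pairs, and 3 of 5 WT libraries were closest to their own number. Whether the numbers pair the libraries cannot be told from these 5 pairs, and the main fit did not pair them. Exact permutation tests gave an unadjusted p under 0.05 for 0 members with all libraries and for 0 to 2 with each library left out. Adjusted over the 10 members, the smallest exact permutation p with all libraries was 0.449. Of the 4 correlated pairs, 3 passed with Spearman's rho, 3 after centring, 1 without the 2 farthest libraries and 0 in the age series alone, where 6 libraries limit the p. The order by FPKM was the same in 12 of 12 alternatives. With these spreads, intervals of the members reached from -0.98 to 0.39 on the log2 scale, widest for Atf3.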

Other observations

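The levels of Ddit3 and Hspa5 were also set beside summed markers of 9 tissue and cell types or responses. Of the 18 relations, 0 had an adjusted permutation p under 0.05. Ddit3 had r = -0.60 with the lens list (permutation p = 0.0533, rho = -0.45, p = 0.162), which was 0.08 without the 2 libraries farthest from the median lens level. With the RPE list its r was 0.51 (permutation p = 0.106, rho = 0.53, p = 0.0994). Hspa5 had rho = -0.67 with the lens list (permutation p = 0.0278, adjusted p = 0.434), where r was -0.28 (permutation p = 0.411) and -0.34 without the 2 farthest libraries. It had r = 0.54 with the adipocyte list (permutation p = 0.0906, rho = 0.47, p = 0.145).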
